A study of Mus musculus with 2 samples.

Results

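Mir22 is the single mouse gene of the microRNA miR-22, which is abundant in heart and skeletal muscle. It was followed here as 1 of the 2202 microRNA genes counted in mouse gastrocnemius, the main muscle of the calf. The gene was chosen by its high level in these same libraries, so its level and its place in the order are described and not tested. Its row was found by the identifier ENSMUSG00000065529.1, which GENCODE mouse M21 names Mir22. The tissue came from female B6CASTF1/J mice, a first-generation cross between the C57BL/6J and CAST/EiJ strains, at 2 months of age. The labels name no engineered allele, no agent and no second condition. The 1 group held 2 libraries of small RNA, replicates 1 and 2. Each replicate is labelled with its own female, yet a single donor code stands on both, so the spread between these libraries may be technical. SDs measure that spread. The p-values of the main test allow for counting error only and not for that spread.

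MicroRNAs are cut from a hairpin in a longer transcript, first in the nucleus and then in the cytoplasm, and 1 strand of the resulting duplex guides Argonaute to messenger RNAs that match its seed, bases 2 to 8. In the heart miR-22 is known from growth under load, where mice that lack it enlarge their heart muscle less, and Sirt1 and Hdac4, a pair of deacetylases, are among its described targets. Its 3p arm is usually the more abundant product. The counts used here are per gene and join both arms, so neither arm's own level was measured.

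In the mm10 assembly Mir22 lies on the plus strand of chromosome 11, from 75463716 to 75463810. This span is inside exon 2 of the long noncoding host transcript Mir22hg-202, which has 3 exons and 1752 bases. A noncoding transcript of the coding gene Tlcd2 holds the same exon. The hairpin and its mature products are shown because the counts rest on reads of these arms and because no other microRNA gene carries them. They are RefSeq sequences on GRCm38.p6, with both arms in capitals in the hairpin and the seed in capitals in each mature sequence.
Mir22 hairpin: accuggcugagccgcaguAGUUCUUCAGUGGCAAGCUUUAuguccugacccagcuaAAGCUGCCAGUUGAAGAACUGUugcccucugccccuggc
miR-22-5p: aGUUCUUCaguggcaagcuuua
miR-22-3p: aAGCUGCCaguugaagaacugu

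The exon of the host transcript, from 75463693 to 75463857, is given with the hairpin in capitals to show where the hairpin sits in the exon. It has 165 bases, of which the hairpin takes 95.
Mir22hg-202 exon 2: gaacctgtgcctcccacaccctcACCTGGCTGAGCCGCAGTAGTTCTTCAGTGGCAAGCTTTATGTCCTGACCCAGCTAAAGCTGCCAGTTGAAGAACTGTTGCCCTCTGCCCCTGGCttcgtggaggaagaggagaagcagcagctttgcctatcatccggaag

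In a minimum free energy fold, computed at −41.9 kcal/mol, 72 of the 95 bases of the hairpin were paired. The arms have 22 bases each, are separated by 16 bases and formed 19 pairs with each other. The arms thus faced each other along nearly their whole length.

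Mir22 had no near copy among the microRNA genes. The seed of miR-22-3p, AGCUGCC, and that of miR-22-5p, GUUCUUC, each occurred in 0 other mature sequences among 1738 RefSeq entries from 1058 genes. With bases 2 to 7 alone, miR-22-3p again had 0 matches, while miR-22-5p had 2, in Mir6935 and Mir7092. Mir6935 had 1 count in each library and Mir7092 had 0, so the libraries held next to no count from a gene with a similar seed. The longest stretch that the hairpin shared with any of the other 2201 microRNA genes, on either strand, was 13 nt, in Mir6998. Both mature sequences were found in 1 microRNA gene each, and elsewhere in the annotated transcripts only in Mir22hg and Tlcd2, which overlap it. A shared stretch of 20 nt with a gene elsewhere was present in 1087 genes, and Mir22 was not among them. Multi-mapped reads, 70.1% and 72.3% of all reads listed, are given in the files apart from the gene counts. The levels of genes with copies, such as Mir1a-1, Mir1a-2 and the Mir133a genes, leave such reads out. These counts thus do not show how Mir22 compares with such genes.

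Replicate 1 had 92360 own-strand counts of Mir22 among 1950204 over all microRNA genes, and replicate 2 had 161312 among 2291821. Its share was 4.74% in replicate 1, with an exact 95% binomial (Clopper-Pearson) interval of 4.71 to 4.77. In replicate 2 the share was 7.04%, with an interval of 7.01 to 7.07. The mean was 5.89% ± 1.63 (SD, n = 2), and the intervals are far narrower than the difference between the libraries. Intervals cover counting error only, and they understate even that error where amplified reads are not independent molecules. In own-strand counts per 1000000 (CPM), Mir22 had 47359 in replicate 1 and 70386 in replicate 2, where 1 count is worth 0.513 and 0.436 CPM. Its mean was 478 times the median of 123 CPM over the 278 genes with at least 10 counts in each library, which are called detected here. No read lay on the strand opposite to Mir22 in either library, which allows at most 3 counts, or 1.54 and 1.31 CPM. Counts without regard to strand were the same 92360 and 161312, so no antisense gene shares reads with Mir22.

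**Figure D1:**
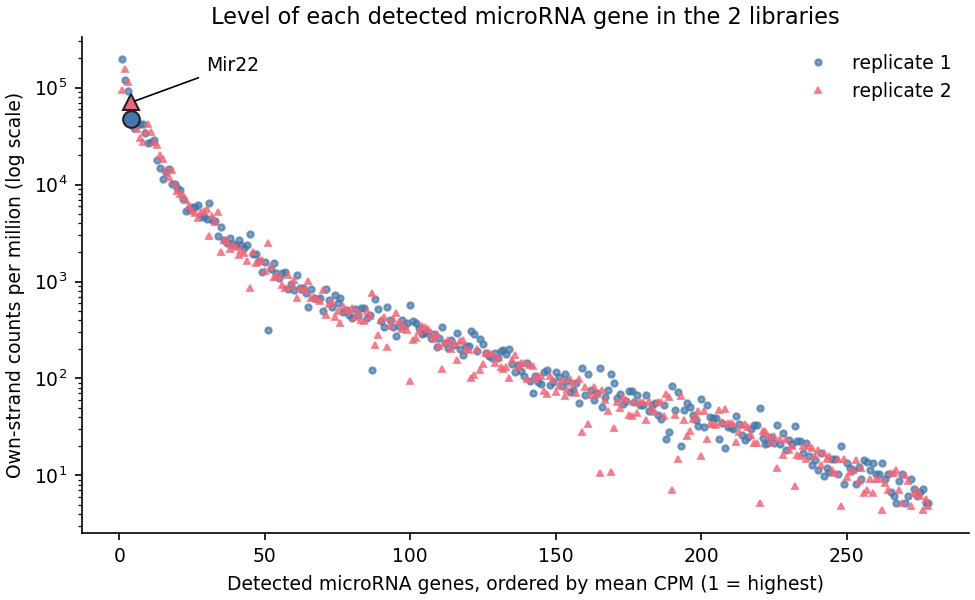
Own-strand CPM (log axis) of each of the 278 detected microRNA genes against its place in the order of mean CPM, with circles for replicate 1 and triangles for replicate 2. Mir22, the 2 large symbols, is at rank 4 with 47359 and 70386 CPM, far above the median of 123 CPM.

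Mir22 had rank 4 in replicate 1 and in replicate 2, below the same 3 genes each time. This order is that of the counts, where genes with copies stand without their multi-mapped reads. The reads are mature-sized and counts were not divided by length. Dividing CPM by the length of the annotated gene left Mir22 at rank 4. Above it were Mir143, a microRNA of smooth muscle, Mir126a of endothelium, and Mir378a, which lies in an intron of the mitochondrial coactivator gene Ppargc1b. Mir143 had 196175 and 94370 CPM in replicates 1 and 2, so that it was 148816 CPM above Mir22 in replicate 1 and 23984 CPM above it in replicate 2. The mean difference, 86400 CPM, was smaller than its SD of 88269, and the places of Mir143 and Mir22 did not differ beyond that spread. The other pair stood clear of it. Mir126a was above Mir22 by 73521 and 86467 CPM, a mean of 79994 ± 9155 (SD, n = 2). Mir378a was above Mir22 by 43966 and 43708 CPM, a mean of 43837 ± 182 (SD, n = 2). Mir378a and Mir22 thus kept nearly the same distance on the CPM scale, although each was higher in replicate 2.

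Below Mir22 came Mirlet7g of the let-7 family, Mir23a, Mir21a, which is known from fibroblasts and injured tissue, and Mir99a. Mirlet7g was below it by 8578 CPM in replicate 1 and 18270 CPM in replicate 2, more on average than the SD of this difference, 6853 CPM. Mir23a was below by 6262 and 32612 CPM, with a mean of 19437 just above the SD of 18632. Mir21a and Mir99a were lower than Mir22 in both libraries as well. They trailed by 5335 and 5305 CPM in replicate 1, and by 40064 and 42603 CPM in replicate 2. For both the mean difference, 22699.5 and 23954 CPM, was smaller than its SD, 24557 and 26374 CPM. In replicate 1 the next gene below Mir22 was Mir99a, 5305 CPM away, and in replicate 2 it was Mirlet7g, 18270 CPM away.

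**Figure D2:**
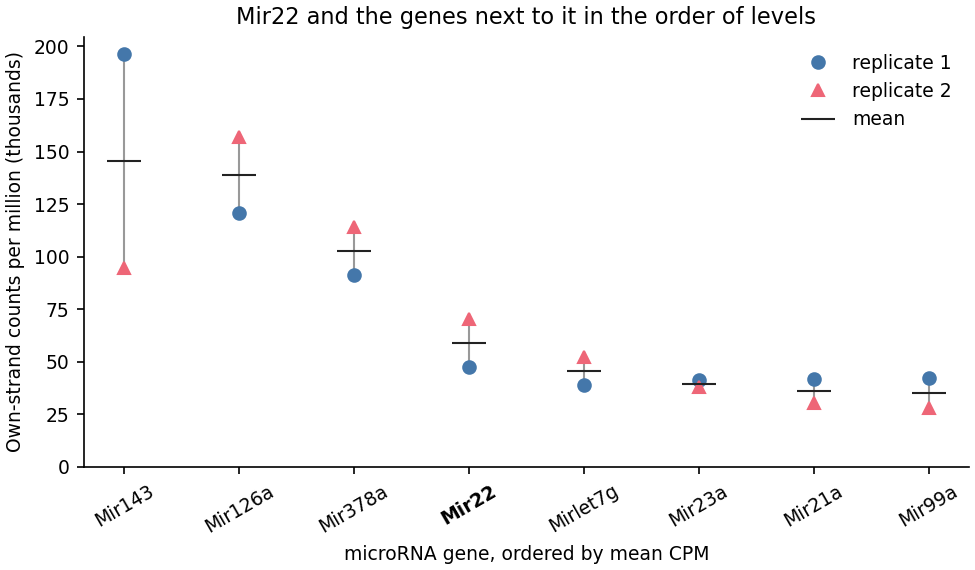
CPM divided by 1000 (linear axis from 0) of Mir22 and of the 3 genes above and the 4 below it by mean, with a circle for replicate 1, a triangle for replicate 2 and a bar for the mean. Mir22, Mir126a, Mir378a and Mirlet7g are higher in replicate 2, and the other 4 genes are lower there.

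Mir22 was 1.49-fold higher in replicate 2 than in replicate 1 in CPM and 1.52-fold higher after TMM scaling, which sets the library sizes by the bulk of the detected genes. On the log2 scale the scaled difference was 0.61 (SE 0.0060, counting error), and the exact binomial 95% interval of the fold was 1.51 to 1.53. This compares 2 libraries and no conditions. A gene was called if it differed at least 2-fold with an adjusted p under 0.05 in a two-sided exact binomial test, with p-values of the 278 detected genes adjusted after Benjamini and Hochberg. Mir22 was not called, because it fell short of the fold minimum, while 33 genes, or 11.9% of those tested, were called. Without a fold minimum Mir22 was among 154 genes, 55.4% of those tested, that passed the same test. With the spread between libraries that edgeR estimated over the detected genes, a coefficient of variation of 0.352, edgeR's exact test gave Mir22 an adjusted p of 1 (unadjusted p = 0.407), and 7 genes (2.52%) were called. That test sets 1 library against 1 with a spread estimated from the same 2 libraries, so its p-value says nothing about how stable the level of Mir22 is. Its own coefficient of variation over the 2 libraries was 27.7%.

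Most abundant genes differed less than Mir22 did. Of the 278 detected genes, 200 had a smaller absolute log2 ratio than Mir22, and the median was 0.36. Of the 58 detected genes that averaged 1000 CPM or more, 49 had a smaller absolute ratio, with a median of 0.30, and 4 had a larger ratio towards replicate 2. These counts describe where Mir22 stood. Of the 20 most abundant genes 13 were higher in replicate 2, and 2 of them by more than Mir22.

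Those 2 were Mir206 and Mirlet7d, which were also among the 5 genes of at least 1000 CPM whose log2 ratio was nearest to that of Mir22, a likeness over 2 libraries only. Mir206, a microRNA of skeletal muscle, had 26708 and 41933 CPM in replicates 1 and 2. Its log2 ratio of 0.69 (SE 0.0078) was at a distance of 0.0792 from that of Mir22. Mir487b, Mir30e and Mir26b were as near within counting error, at 0.0797, 0.0801 and 0.0807. Mir487b of the imprinted Dlk1-Dio3 region had 833 and 1172 CPM and a log2 ratio of 0.53. Mir30e and Mir26b, at means of 12146 and 21785 CPM, had log2 ratios of 0.53 each. Mirlet7d had 11463 and 18403 CPM and a log2 ratio of 0.72. With ratios this near to that of Mir22, these 5 genes fell short of the 2-fold minimum by their choice, so none could be called. The mature sequences of Mir206 are shown because it came first of them, by a margin within counting error. Their seeds, again in capitals, are not those of miR-22.
miR-206-5p: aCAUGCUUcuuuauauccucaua
miR-206-3p: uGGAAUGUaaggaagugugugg

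**Figure D3:**
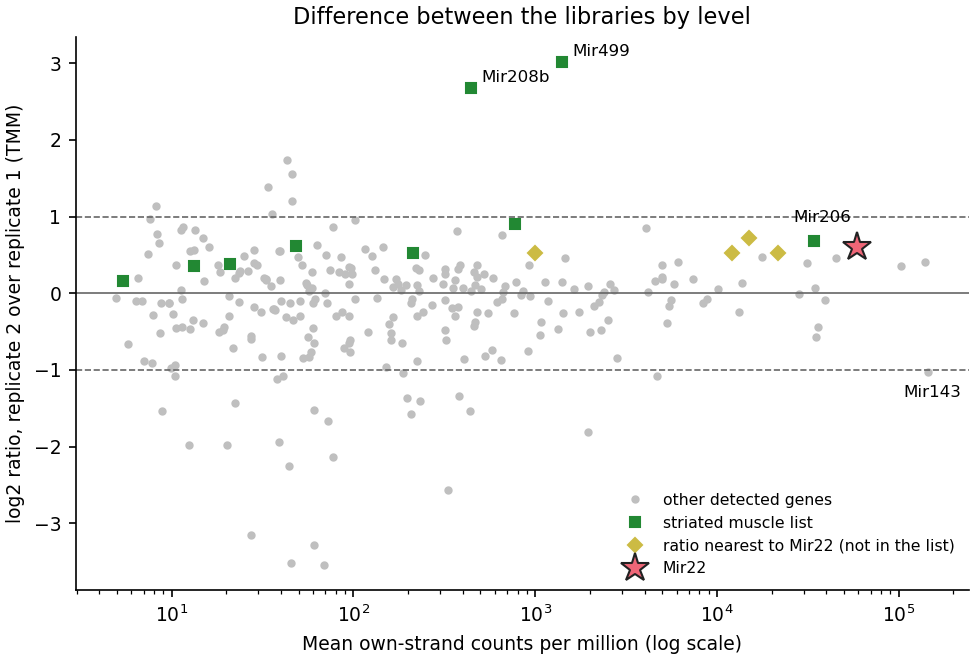
TMM-scaled log2 ratio of replicate 2 over replicate 1 against mean CPM (log axis) for the 278 detected genes, with dashed lines at 2-fold in either direction. Mir22 (star, 0.61) lies beside Mir206 (0.69) at the abundant end. The 9 detected genes of the striated muscle list (squares) all lie above 0, with Mir499 and Mir208b beyond 2-fold. Of these, Mir133b, Mir1a-1 and Mir133a-2 differ from 0 only within counting error.

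Ratios of Mir22 to another gene within a library do not depend on library size. Mir22 had 1.77 counts for each count of Mir206 in replicate 1 (95% interval 1.75 to 1.79). In replicate 2 it had 1.68 (1.67 to 1.69), which gives 1.73 ± 0.0670 (SD, n = 2). Against Mir378a it had 0.519 and 0.617 counts, and against Mir126a 0.392 and 0.449. The ratios to Mir206, Mir126a and Mir378a thus differed between the libraries by factors of 0.947, 1.15 and 1.19. The factor for Mir206 restates the nearness in log2 ratio by which it was picked above, and is no separate result. Against Mir143, which was lower in replicate 2, Mir22 had 0.241 counts in replicate 1 and 0.746 in replicate 2, a 3.09-fold difference. Against Mir21a the ratio was 1.13 and 2.32, a 2.06-fold difference.

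MicroRNAs named for striated muscle, a list without Mir22, were set beside it. The list holds 10 genes, and 9 were detected, so markers of the labelled tissue were present. Their summed counts were 54501 and 106727 in the 2 libraries, and the counts of Mir22 were 1.69 and 1.51 times this sum, a mean of 1.60 ± 0.130 (SD, n = 2). The sum leaves out multi-mapped reads, among them those of the Mir1a and Mir133a genes. The ratio thus holds for the deposited counts only and does not give the level of Mir22 against these microRNAs. No other tissue was measured, and the levels do not show how far Mir22 is particular to muscle. Mir206 carried most of the sum as counted. Without it the ratio was 38.2 and 15.2, with the same reads left out. All 9 detected genes were higher in replicate 2, with a median log2 ratio of 0.61 against −0.03 over all detected genes. Of the 9 genes 2 were called, both higher, beside 11.9% called of all tested.

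The 2 called genes were Mir499 and Mir208b, which lie in introns of Myh7b and Myh7, myosin genes of slow fibres and heart. The counts of Mir499 were 615 and 5722, so that Mir22 had 150 and 28.2 counts for each of its counts. Mir208b had 238 and 1745 counts, against which Mir22 had 388 and 92.4. Mir22 differed far less between the libraries than this pair. Mir486, which lies in an intron of the muscle ankyrin gene Ank1, had 1070 and 2306 counts and a log2 ratio of 0.91. Mir1a-2 and Mir133a-1 had log2 ratios of 0.52 (SE 0.0985) and 0.61 (SE 0.208), within 1 SE of that of Mir22. Mir133b, Mir1a-1 and Mir133a-2 had at most 54 counts in a library and log2 ratios from 0.16 to 0.38, each within 1 SE of Mir22. Mir1a-1 (SE 0.386) and Mir133a-2 (SE 0.594) were also within 1 SE of 0. Mir208a, of the cardiac myosin gene Myh6, had 4 and 50 counts and was not tested.

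A second list gathered 20 microRNAs known from heart growth and remodelling, Mir22 among them. It held 26.1% of counts in replicate 1 and 29.6% in replicate 2, so that Mir22 made up 0.181 and 0.238 of the list's counts. Of its 17 detected genes 12 were higher and 5 lower in replicate 2, with a median log2 ratio of 0.16. Of the 17 genes 3 were called, Mir499 and Mir208b higher and Mir199b lower, beside 11.9% of all tested. Mir378a, Mir22, Mir23a and Mir21a were its most abundant members. The called members were not among these 4. Mir30d and Mir27b had log2 ratios of 0.13 and 0.05, Mir29a, a regulator of collagen genes, −0.12, Mir195a 0.18 and Mir214 0.14.

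Muscle tissue also holds vessels, nerve, blood and connective tissue, and markers of these differed between the libraries too. In bulk tissue fewer cells of a type and less RNA per cell cannot be told apart. The smooth muscle list, Mir143 and Mir145a, took 20.3% of counts in replicate 1 and 9.73% in replicate 2, and 2 of its 2 genes were called, both lower. The endothelial marker Mir126a took 12.1% and 15.7%. The fibroblast list took 4.35% and 3.18%, nearly all of it Mir21a as counted, and its members were split. Mir199a-1 and Mir199a-2 are gene copies, and reads that map to both are outside the counts. The counts thus do not give the level of their microRNA. Mir21a had a log2 ratio of −0.44, Mir214 0.14 (SE 0.0376) and Mir199a-2 −0.17 (SE 0.263). Mir199b was called lower, 1 of the 4 detected genes. Of all genes tested 11.9% were called, and lists of 2 or 4 genes are too short to read against that share. The share of the smooth muscle list was thus smaller in the library where that of Mir22 was larger. The share of the fibroblast list, in effect Mir21a as counted, was smaller there too, and the endothelial share was larger.

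The remaining lists all took a smaller share in replicate 2. The leukocyte list, led by Mir155, took 0.315% and 0.246%, and its members were split. Mir155 and Mir150, the most abundant, had log2 ratios of 0.14 and 0.03, Mir223 and Mir142 were called lower, at −1.53 and −1.33, and Mir142b was at 0 in both libraries. The red cell list, led by Mir451a, took 0.0787% and 0.0460%. The Schwann cell and nerve list, as counted, was in effect Mir338, which was called lower. The list took 0.308% and 0.0862%, while the 6 genes of the neuronal Mir124a and Mir9 groups were at 0 in both libraries. These groups have 3 gene copies each, and reads that map to several copies are outside the counts, so the 0 does not show that their microRNAs were absent. The epithelial list, led by Mir203, took 0.0338% and 0.0164%, and the liver list took 0.0193% and 0.0134%. In the liver list Mir122 was called lower, with 215 and 25 counts. Mir192 had 98 and 174 counts and Mir194-2 had 63 and 106, and both were higher in replicate 2. The smaller share of this list thus rested on Mir122. Mir22 had at least 15.0 counts for each count of any of these 5 lists. The part of cell makeup in the difference of Mir22 was not tested.

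**Figure D4:**
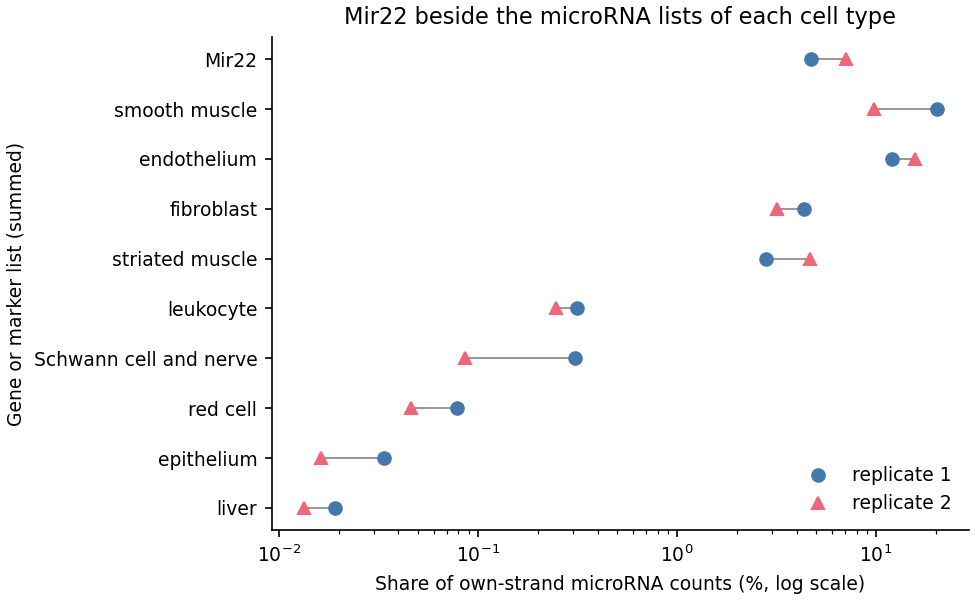
Share of own-strand microRNA counts (%, log axis) of Mir22 and of each list of microRNAs known from a cell type, with a circle for replicate 1 and a triangle for replicate 2. Mir22, the striated muscle list and the endothelial marker are higher in replicate 2, and the other 7 lists are lower there.

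A share also moves when another gene takes less of the total. With Mir143 left out of the total, the share of Mir22 was 5.89% and 7.77%, and its fold between the libraries was 1.32 in place of 1.49. Without the 10 most abundant other genes Mir22 made up 13.95% and 18.8% of the remainder, 1.35-fold apart. Of all reads listed in the files, aligned or not, Mir22 made up 0.981% and 1.12%, a 1.14-fold difference. It was higher in replicate 2 with every one of these totals, and the size of the difference depended on the total.

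Mir22 was the most abundant microRNA gene of chromosome 11 and held 43.1% and 59.6% of the counts of its 137 microRNA genes. Its neighbours were far lower. Of the 5 other microRNA genes within 1000000 bp, Mir132 alone was detected. It lies 289969 bp upstream and had 515 and 497 counts, with a log2 ratio of −0.25 (SE 0.0907), not called. Mir22 had 179 and 325 counts for each of its counts. The cluster partner of Mir132, Mir212, 290238 bp away, had 12 and 9 counts. Both are known from neurons and from heart growth. The nearest genes on each side, Gm47300 at 145108 bp and Mir3971 at 87619 bp, had 0 counts in both libraries, as did Mir6926. Of the 21 detected genes of the chromosome 9 were higher in replicate 2, with a median log2 ratio of −0.09, and 2 were called, close to the 11.9% of all tested. The neighbours of Mir22 thus did not share its level.

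Other abundant microRNAs also lie in an exon of a host gene, as Mir22 does. Hosts were sought on the same strand only and had to span the whole microRNA gene. Of the 281 microRNA genes that lie whole in an exon of such a host, 58 were detected (20.6%). In introns 112 of 814 were detected (13.8%), and without such a host 95 of 1023 (9.29%). Mir126a, in an exon of the endothelial gene Egfl7, was the only one of the exonic genes above Mir22. Mir21a in Vmp1 and Mirlet7i followed it, at means of 36173 and 34452 CPM. The median level of the detected exonic genes was 168 CPM, close to the 196 CPM of the intronic ones, and both were far below Mir22.

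The messenger RNAs that miR-22 may bind were not measured. To show what its seed looks for, the reverse complement of the seed of miR-22-3p, GGCAGCT, was searched on the sense strand of the 3′ UTR of the longest coding transcript of each gene. It was present in 2645 of 20911 genes (12.6%), and in each of Hdac4, Sirt1, Purb, Ppara, Cdk6, Max and Sp1, which were listed as described miR-22 targets. The list was drawn from genes already described as targets, and each of these has a 3′ UTR longer than the median of 936 bases. Among genes whose 3′ UTR was within 1.2-fold of the length in question, 30.8% had a match for Hdac4, 16.5% for Sirt1 and 53.2% for Cdk6. A match is a description of letters and no evidence of binding in this muscle. Short windows around the first match, with the match in capitals, are given for the deacetylases Sirt1 and Hdac4.
Sirt1: tccaaaacttgtGGCAGCTaacttt
Hdac4: cacgccaaactcGGCAGCTttgggg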

How the data were processed

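The authors deposited raw counts of small RNA reads per microRNA gene for 2 libraries of 1 group, for either strand, the gene's own strand and the opposite strand, with mm10 and GENCODE M21 named in a note beside each table. Which column is the own strand was read from the values, since it holds nearly all counts and the opposite strand few. Which aligner and counter were used is not given in the sources used here. Entries that name no gene, among them the multi-mapped reads (70.1% and 72.3%), were left out of totals. Replicate 1 listed 9410562 reads, 20.7% of them counted on the own strand, and replicate 2 listed 14377558, 15.9%.

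From these counts CPM, shares and ratios were computed. The ratio test was a conditional exact binomial test across all 278 genes with at least 10 counts in each library. It used TMM sizes from edgeR 4.0.16, a log2 prior of 0.5 counts and a 2-fold minimum. It was checked on simulated counts that held counting error only, so the check does not cover spread between libraries. Alternatives changed the scaling (DESeq2 1.42.0), strand, denominator, count minimum, error model and libraries. R 4.3.3, Python 3.11.15, scipy 1.17.1 and RNAfold 2.7.2 were used. Named genes were Mir22, the 4 genes on each side in the order (3 exist above), the 5 of nearest ratio with at least 1000 CPM, the muscle list, microRNA genes within 1000000 bp, sharers of a seed and the first gene of each list. Genes of the text outside this rule were chosen after their values were seen. Mir22 and the lists were chosen with earlier results of these data known. Mir146a of the leukocyte list was not found by that name. All 2202 identifiers matched the annotation. Mature and hairpin sequences are from RefSeq on GRCm38.p6, and the host exon and 3′ UTRs from GENCODE M21. A gene of the target list is not reported here.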

Additional observations from a re-analysis of the deposited data

Results flagged for a closer look

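Reads that aligned to several places lie outside the gene counts and made up 70.1% of the reads listed in replicate 1 and 72.3% in replicate 2. They enter the comparisons of Mir22 only as part of the total of all reads listed. Both mature sequences of Mir22 occur in 1 microRNA gene each, and whether any of these reads came from Mir22 was not tested.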

How the results depend on the processing

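The log2 ratio of Mir22 stayed above 0 and without a call in 7 of 8 alternatives, between 0.57 and 0.73, and without a fold minimum it was called, at 0.61. DESeq2 size factors moved the median of all detected genes by 0.12. A change of scaling shifts all genes alike, so relative to that median Mir22 had 0.64 with either scaling by construction. DESeq2 size factors also turned the calls from 7 higher and 26 lower to 10 higher and 21 lower. Of the detected genes, 33 were called in the main comparison, 12 with a minimum of 100 counts, 7 with edgeR's exact test and common dispersion, and 154 without a fold minimum. The share of Mir22 (mean 5.89%) was 8.13% on counts without regard to strand, 16.4% without the 10 most abundant other genes in the total and 1.05% of all reads listed. Without each replicate in turn it was 4.74% to 7.04%, and the rank remained 4. The rank was 2 on counts without regard to strand, where Mir126a and Mir378a have 0 counts. Mir22 over the sum of the muscle list was 1.60 in the mean and 26.7 without Mir206. With each replicate left out in turn this ratio was 1.51 to 1.69. These counts leave out multi-mapped reads, among them those of the Mir1a and Mir133a genes. All detected genes of the muscle list were higher in replicate 2 with each scaling. Mir133b, Mir1a-1 and Mir133a-2 were so only within counting error in the main comparison. With 2 libraries, an SD rests on a single difference. No paired analysis was possible because there is 1 group.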
